A study of Mus musculus with 29 samples.

Results

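The expression of 10 genes of glucose uptake, glycolysis and acid handling was examined in RNA-seq libraries of peritoneal tissue from a mouse model of gastric cancer dissemination. The genes were the hexokinases Hk1 and Hk2, the phosphofructokinases Pfkm and Pfkp, the pyruvate kinase Pkm, the lactate dehydrogenases Ldha and Ldhb, the glucose transporters Slc2a1 (GLUT1) and Slc2a4 (GLUT4), and the carbonic anhydrase Car9. They were set by a list of symbols, whose rule uses no measured value, and all 10 were found among the 24421 genes of the count table and had enough reads to be tested in each of 9 comparisons. Pfkm and Slc2a4, the isoforms typical of skeletal muscle, were compared with the 8 other genes, which are ubiquitous or are known as tumor genes.

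Female C57BL/6J mice, 5 to 6 weeks old, received YTN16 cells, a transplantable mouse gastric cancer line, into the peritoneal cavity, so every group carried the tumor graft at the start. The 29 mice, with 1 library each, fell into 7 groups. At 3wk (day 21) there were 5 untreated mice, which were given PBS, and 5 mice given dual ICI, that is anti-PD1 (10 mg/kg) with anti-CTLA4 (5 mg/kg). At 5wk (day 35) there were 5 untreated, 5 anti-PD1, 4 anti-CTLA4 and 5 dual ICI mice. The labels put these last 5 mice in 1 group. They were split into 2 uncured mice (numbers 1 and 5) and 3 cured mice (numbers 2, 3 and 4) by taking the number in each library's title as the mouse number used in the study. The labels call all of the material tumor tissue, and the study's methods describe stripped peritoneum with or without nodules, so each library could hold abdominal wall as well as tumor. All 5wk comparisons with untreated mice used the same 5 untreated mice. In the study's schedule the treated 5wk mice received more ICI doses than the treated 3wk mice. The column headers of the 3wk and 5wk libraries carry separate ranges of library codes, whose meaning is not given in the sources used here. Time, whatever these codes mark and, in treated mice, the number of doses therefore cannot be told apart.

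Glycolysis takes glucose to pyruvate. Hexokinase traps glucose in the cell as glucose-6-phosphate, phosphofructokinase carries out the committed step, pyruvate kinase makes pyruvate, and lactate dehydrogenase turns pyruvate into lactate and back. Tissues use different isoforms of the same step. Skeletal muscle takes up glucose through GLUT4, which insulin and contraction bring to the surface, and uses Pfkm and Hk2, whereas GLUT1, Hk1 and Pfkp are found in many dividing and epithelial cells. Many tumors raise GLUT1, Hk2, Ldha and the M2 splice form of Pkm, and Car9, an enzyme on the outer cell surface that hydrates carbon dioxide, is a classical target of the hypoxia factor HIF. Ldhb is abundant in oxidative tissue such as heart and slow muscle. The M1 (muscle) and M2 (tumor) forms of Pkm are made from the same gene, and gene counts cannot tell them apart.

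In GENCODE vM21 (GRCm38) Pfkm lies on the plus strand at chr15:98092589-98132451, Pfkp on the minus strand at chr13:6579768-6648777, Slc2a4 on the minus strand at chr11:69942539-69948188, Slc2a1 on the plus strand at chr4:119108711-119137983 and Car9 on the plus strand at chr4:43506966-43513729. The others lie at chr10:62268855-62379908 (Hk1, minus), chr6:82725025-82774454 (Hk2, minus), chr9:59656368-59679375 (Pkm, plus), chr7:46841475-46855627 (Ldha, plus) and chr6:142490249-142507957 (Ldhb, minus). The 250 bases upstream of the RefSeq start were read for 9 of the 10 genes (all but Slc2a4), from GRCm38.p6. They are printed 5′ to 3′ on the gene's strand for both phosphofructokinases, whose levels moved in opposite directions, for Car9, which had the largest difference, and for Slc2a1 and Ldha, which like Car9 are known as hypoxia targets. Capitals mark ACGTG and GCGTG, the letters of the core of the hypoxia response element, on either strand. For Pfkm, which has 4 listed starts, the first and the last are shown, and the counts do not tell which start was used. The upstream windows are Pfkm start 1 at chr15:98092339-98092588, Pfkm start 4 at chr15:98111810-98112059, Pfkp at chr13:6648772-6649021, Slc2a1 at chr4:119108495-119108744, Ldha start 1 at chr7:46845554-46845803 and Car9 at chr4:43506776-43507025.
Pfkm start 1: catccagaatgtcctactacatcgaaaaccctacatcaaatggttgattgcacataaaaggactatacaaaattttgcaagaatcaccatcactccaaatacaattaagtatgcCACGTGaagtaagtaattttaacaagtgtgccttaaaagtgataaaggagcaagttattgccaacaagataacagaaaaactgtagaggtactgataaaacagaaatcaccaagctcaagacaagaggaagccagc
Pfkm start 4: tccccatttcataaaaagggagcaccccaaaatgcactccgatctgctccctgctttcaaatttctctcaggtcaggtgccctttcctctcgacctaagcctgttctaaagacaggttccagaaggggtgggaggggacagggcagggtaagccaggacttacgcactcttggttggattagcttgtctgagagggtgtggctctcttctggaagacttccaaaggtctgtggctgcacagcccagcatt
Pfkp: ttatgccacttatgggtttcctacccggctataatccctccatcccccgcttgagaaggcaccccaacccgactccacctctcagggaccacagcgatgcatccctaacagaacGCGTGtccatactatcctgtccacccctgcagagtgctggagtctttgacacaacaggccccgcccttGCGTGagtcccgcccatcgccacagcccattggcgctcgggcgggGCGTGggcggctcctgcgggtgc
Slc2a1: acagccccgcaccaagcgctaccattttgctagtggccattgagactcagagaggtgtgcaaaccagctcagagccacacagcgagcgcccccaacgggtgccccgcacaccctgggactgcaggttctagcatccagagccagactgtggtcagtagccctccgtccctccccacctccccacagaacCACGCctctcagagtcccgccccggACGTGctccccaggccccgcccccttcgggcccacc
Ldha start 1: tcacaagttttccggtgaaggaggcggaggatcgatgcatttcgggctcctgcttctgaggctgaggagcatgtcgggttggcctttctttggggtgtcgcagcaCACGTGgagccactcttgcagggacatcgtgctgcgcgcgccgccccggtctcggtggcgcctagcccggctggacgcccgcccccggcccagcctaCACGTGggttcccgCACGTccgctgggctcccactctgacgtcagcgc
Car9: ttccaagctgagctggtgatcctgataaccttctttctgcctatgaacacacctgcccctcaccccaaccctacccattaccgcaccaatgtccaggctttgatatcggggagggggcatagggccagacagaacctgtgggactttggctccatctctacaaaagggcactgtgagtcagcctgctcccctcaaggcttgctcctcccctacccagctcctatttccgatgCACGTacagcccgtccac

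ACGTG was present in 16.6% and GCGTG in 28.2% of the 32851 RefSeq windows of this length. Car9 held ACGTG once, at position -18 from the start. Slc2a1 held ACGTG at -36 and GCGTG at -61, and the first Ldha start held ACGTG at -145, -144, -48, -47 and -34, where the palindrome CACGTG counts once on each strand. Pfkp held GCGTG at -136, -68 and -23 and no ACGTG. The first Pfkm start held the palindrome at -136 and -135 in a window of only 36.4% G and C, and the last held neither word. Of the Pfkm starts not printed, the second held ACGTG at -244 and GCGTG at -149, and the third held GCGTG at -234. CAGCTG, an E-box form of muscle genes, was present in 13.0% of all windows and among the 9 genes searched only upstream of Pkm, at -38 of its first start. These matches describe letters only and were not tied to any difference in the counts.

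Each library held between 25989217 and 31219650 counts, so that even the lowest member count (71 for Car9) was well above the detection limit. Skeletal muscle was a large and variable source of RNA. The 28 markers of skeletal muscle, all detected in each group, took between 4.70% and 25.8% of a library's counts. Their share was 24.0 to 25.8% in the 3 cured mice, 6.21 and 8.73% in the 2 uncured mice and 7.00 to 23.2% in the untreated mice at 5wk. The 28 gastric epithelium markers took 0.00979 to 0.0157% of counts in the cured mice, where 6 of them had 3 counts or fewer in every library, and 0.125 to 0.508% in the untreated mice at 5wk. In the cured mice the gastric epithelium markers thus went against the label of tumor tissue. Untreated mouse 2 at 5wk (23.2% muscle) and anti-PD1 mouse 5 (23.9% muscle, 0.0120% gastric epithelium) stood apart from their groups. The study states that 1 anti-PD1 mouse was cured without a number that ties it to a library, so mouse 5 was kept in its group and results are also given without it.

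Per kilobase of the longest principal transcript, the highest levels among the members in untreated mice at 5wk were those of Ldha with 948 ± 591 CPM per kb (CPM is the count scaled to a common library size after TMM normalisation, SD, n = 5), Pkm with 796 ± 407 and Pfkm with 592 ± 390. An intermediate level was seen for Ldhb with 90.4 ± 68.5, Slc2a4 with 72.5 ± 43.7 and Hk2 with 34.3 ± 14.1. Hk1 (18.3 ± 4.07), Car9 (16.4 ± 5.69), Pfkp (14.5 ± 3.68) and Slc2a1 (11.5 ± 1.04) formed the lowest tier. The muscle isoforms therefore outnumbered their ubiquitous partners in tissue that carried tumor. In the cured mice the ranking was Ldha (2766 ± 98.3, n = 3), Pkm (2330 ± 72.3), Pfkm (1769 ± 42.6), Ldhb (327 ± 8.92), Slc2a4 (268 ± 14.4) and Hk2 (77.0 ± 4.52), while Hk1 (9.89 ± 0.69), Slc2a1 (9.08 ± 1.51), Pfkp (6.42 ± 0.32) and Car9 (2.02 ± 0.29) had lower levels than in untreated mice. Over all 29 libraries Car9 had the widest range (19.9-fold between the lowest and the highest mouse), followed by Ldhb (12.05-fold), Slc2a4 (8.70-fold) and Pfkm (8.04-fold), and Slc2a1 had the narrowest (3.13-fold). In the order of group means, cured and uncured mice took opposite ends for all 10 genes. Cured mice were at the top for Pfkm, Slc2a4, Ldhb, Hk2, Pkm and Ldha and at the bottom for Pfkp, Hk1, Slc2a1 and Car9. Their range was apart from that of the next group in the order for 9 genes, and overlapped with it for Slc2a1, while all other neighbours in the order overlapped. Groups farther along the order could still overlap with the cured mice. The share of all genes with such an order was not computed, so these counts are not read as a trait of the members. Between cured and untreated mice at 5wk alone, the CPM ranges of 47.3% of all genes did not overlap. Anti-PD1 mouse 5 lay within the cured range for Pfkm, Slc2a4, Pkm and Ldha and past it for Hk2, Ldhb and Hk1. It fell short of that range for Pfkp, Slc2a1 and Car9.

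**Figure D1:**
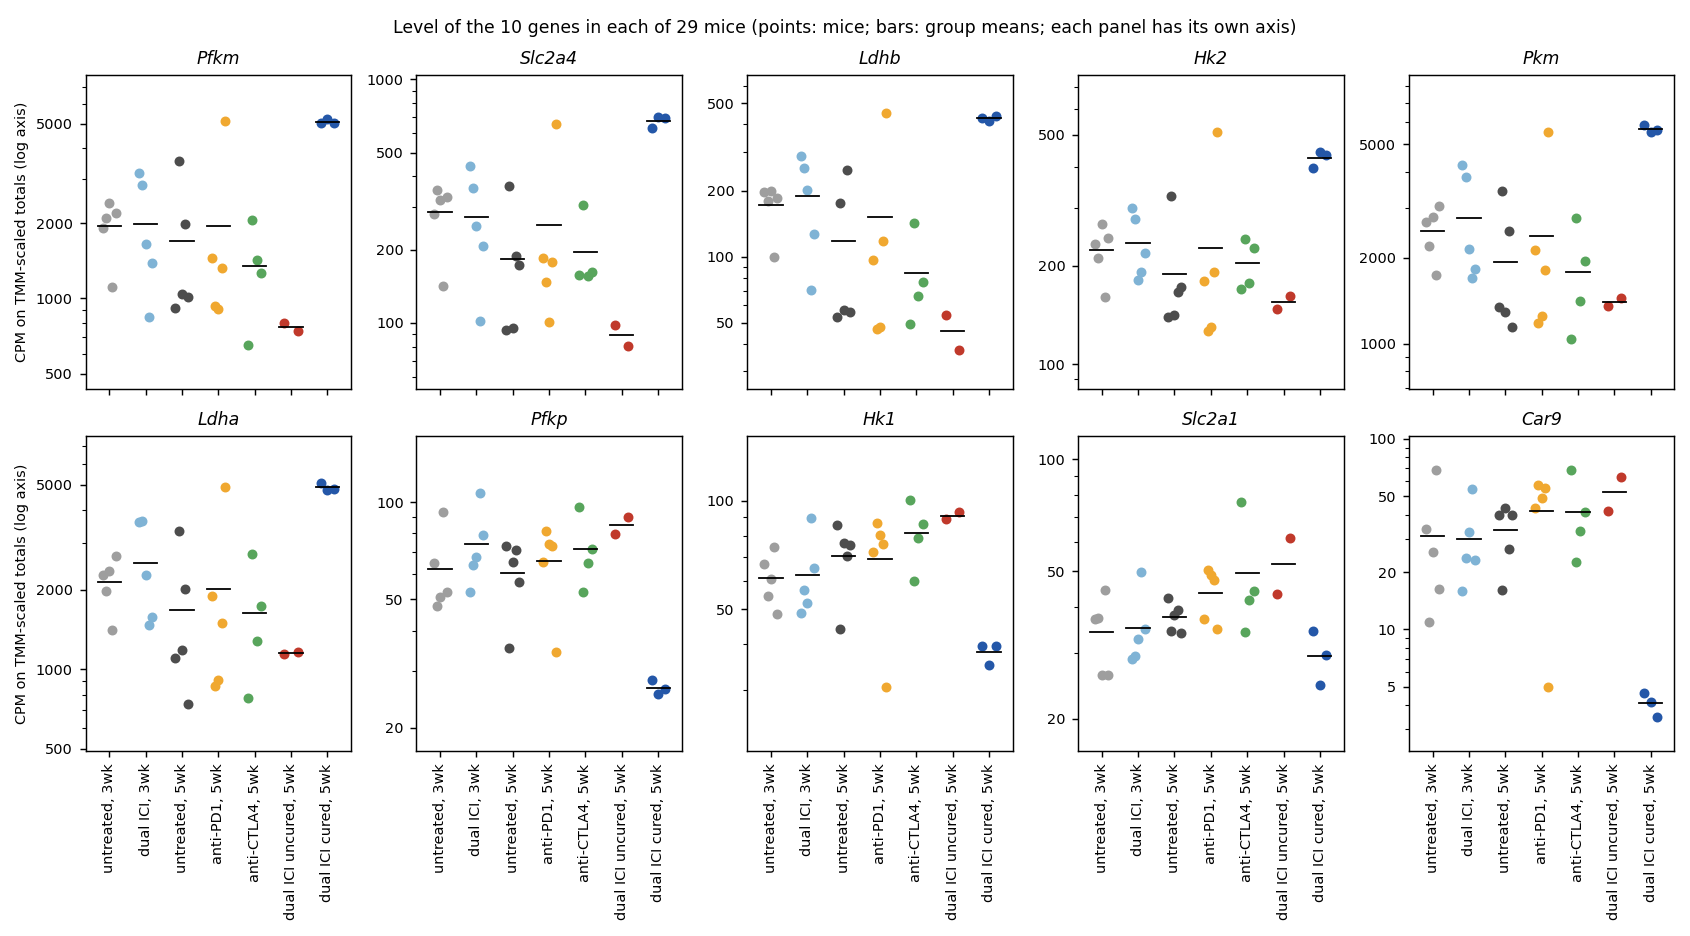
The y axis of each panel gives the level of 1 gene as CPM on TMM-scaled totals (log axis), and the x axis gives the 7 groups. Points are mice and bars are group means. The 3 cured mice (last group of each panel) sit near the top for Pfkm, Slc2a4, Ldhb, Hk2, Pkm and Ldha and near the bottom for Pfkp, Hk1 and Car9, and 1 anti-PD1 mouse (mouse 5) lies close to them.

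The question of the cured mice was what remained of glycolytic expression where the disseminated nodules had cleared. Pfkm measured 919, 3556, 1041, 1993 and 1009 CPM in untreated mice 1 to 5 at 5wk. It measured 5016, 5236 and 5031 CPM in the 3 cured mice and 800 and 740 CPM in the 2 uncured mice. The 3 groups did not overlap, with cured mice at the top and uncured mice at the bottom. Pfkm rose in cured mice by 1.57 ± 0.49 on the log2 scale (SE, edgeR adjusted p = 0.0262), a 2.98-fold increase. This call was lost in 6 of the 8 edgeR fits that left out a mouse (each of the 3 cured mice and untreated mice 1, 3 and 5), with adjusted p up to 0.0737. The log2 difference in these 8 fits stayed between 1.41 and 2.06, and it was highest without untreated mouse 2.

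Pfkp, which carries out the same step, moved the other way. It measured 73.0, 35.4, 65.3, 71.0 and 56.5 CPM in untreated mice 1 to 5 at 5wk, 28.0, 25.4 and 26.4 CPM in cured mice and 79.7 and 89.9 CPM in uncured mice. Again no group overlapped another, and the order was the reverse of that of Pfkm. In cured mice Pfkp fell by 1.17 ± 0.22 on the log2 scale (edgeR adjusted p = 0.00283). The lowest untreated value was that of mouse 2, the muscle-rich library, which also had the highest Pfkm value of its group. Pfkm and Pfkp each overlap a gene on the opposite strand, Senp1 and Pitrm1, and the strand setting of the counting was not given in the sources used here. Senp1 measured 16.2 to 17.7 CPM in cured and 23.6 to 39.7 CPM in untreated mice, opposite to Pfkm and far below it. Pitrm1 measured 63.3 to 67.6 CPM in cured and 57.1 to 65.4 CPM in untreated mice, above Pfkp in the cured mice.

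Slc2a4, the insulin-responsive transporter of muscle and fat, measured 93.5, 364, 95.2, 188 and 174 CPM in untreated mice 1 to 5 at 5wk and 634, 698 and 697 CPM in cured mice. The 2 uncured mice had 98.0 and 80.2 CPM. All cured values were above all untreated ones, and the uncured values lay at or just below the lowest untreated values. Slc2a4 rose in cured mice by 1.88 ± 0.42 (log2, edgeR adjusted p = 0.00683), a 3.68-fold increase, and this was kept without any single mouse. Slc2a1, the basal transporter of most cells, measured 42.2, 34.4, 38.2, 39.2 and 34.1 CPM in the untreated mice, 34.5, 24.6 and 29.8 CPM in cured mice and 43.3 and 61.4 CPM in uncured mice. It was the only member whose cured values overlapped with the untreated ones. Its difference in cured mice was -0.34 ± 0.14 (log2, edgeR adjusted p = 0.0805), which did not pass the threshold. The adipocyte markers, the other main source of Slc2a4, were all higher in cured mice, with a median difference of 0.67 (log2). Of these 12 genes 1 was called, against 44.7% of all genes. In uncured against cured mice all 12 were called lower (median -1.73), where 70.0% of all genes were called. The part of fat in the Slc2a4 differences was not tested.

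Ldha and Ldhb both rose in cured mice. Ldha, the subunit that favours lactate formation, measured 1106, 3347, 1178, 2003 and 735 CPM in untreated mice 1 to 5 at 5wk, 5080, 4751 and 4821 CPM in cured mice and 1141 and 1156 CPM in uncured mice. Ldhb measured 53.3, 175, 57.0, 248 and 56.1 CPM in untreated mice, 426, 414 and 437 CPM in cured mice and 54.3 and 37.3 CPM in uncured mice. For both genes the cured mice were above every untreated mouse, and the uncured mice lay among the lower untreated values or, for Ldhb in mouse 5, below them. The increase was 1.54 ± 0.48 (log2, edgeR adjusted p = 0.0268) for Ldha and 1.86 ± 0.52 (adjusted p = 0.0178) for Ldhb. The call for Ldha was lost in 5 of the 8 edgeR fits that left out a mouse (each of the 3 cured mice and untreated mice 1 and 3), with adjusted p up to 0.0706. The call for Ldhb was lost without cured mouse 4 (edgeR adjusted p = 0.0507). Untreated mouse 4 had the highest Ldhb of its group (248 CPM) with a Ldha level of 2003 CPM, below that of mouse 2. Ldha, although known as a tumor gene, was thus higher in the libraries with the least gastric epithelium RNA. Ldha and Pkm have processed pseudogenes, so some of their reads may be shared with copies.

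The hexokinases differed in the same way as the phosphofructokinases. Hk2, the insulin-regulated hexokinase of muscle and of many tumors, measured 139, 325, 142, 167 and 172 CPM in untreated mice at 5wk, 396, 443 and 435 CPM in cured mice and 148 and 162 CPM in uncured mice. Hk1, the ubiquitous form, measured 85.6, 44.2, 76.6, 70.1 and 75.4 CPM in untreated mice, 39.6, 34.99 and 39.6 CPM in cured mice and 89.0 and 92.8 CPM in uncured mice. The cured mice did not overlap with the untreated mice for either gene. Hk2 rose by 1.17 ± 0.30 (log2, edgeR adjusted p = 0.0120) and Hk1 fell by 0.87 ± 0.20 on the log2 scale (adjusted p = 0.00698). Hk2 therefore stood with the muscle isoforms and not with Pfkp, Hk1 and Car9. Like Pfkm and Pfkp, Hk1 overlaps a counted gene on the opposite strand, Hk1os, so the unknown strand setting also limits its counts.

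Pkm measured 1343, 3430, 1292, 2475 and 1142 CPM in untreated mice at 5wk, 5857, 5511 and 5631 CPM in cured mice and 1356 and 1443 CPM in uncured mice. It rose in cured mice by 1.55 ± 0.43 (log2, edgeR adjusted p = 0.0163), with no overlap between the groups. Car9 measured 39.9, 16.1, 43.5, 26.5 and 39.7 CPM in untreated mice, 4.64, 4.18 and 3.46 CPM in cured mice and 42.0 and 63.3 CPM in uncured mice. It fell 8.02-fold in cured mice, a log2 difference of -3.004 ± 0.34 (edgeR adjusted p = 0.000221), the largest difference among the members, and the cured values corresponded to 71 to 90 counts per library. Untreated mouse 2 had a muscle share (23.2%) close to that of the cured mice (24.0 to 25.8%) and a Car9 level of 16.1 CPM, and anti-PD1 mouse 5, with 23.9% muscle and almost no gastric epithelium RNA, had 4.99 CPM.

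In cured against untreated mice 9 of 10 members were called, 6 higher and 3 lower. Of all 15816 genes tested, 44.7% were called in this comparison, and the CPM ranges of 9 of 10 members did not overlap, against 47.3% of all genes. Both the muscle share and the gastric epithelium share of the libraries moved with these differences, and their part in them was not tested. In bulk tissue, fewer cells of a type and less RNA per cell cannot be told apart.

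**Figure D2:**
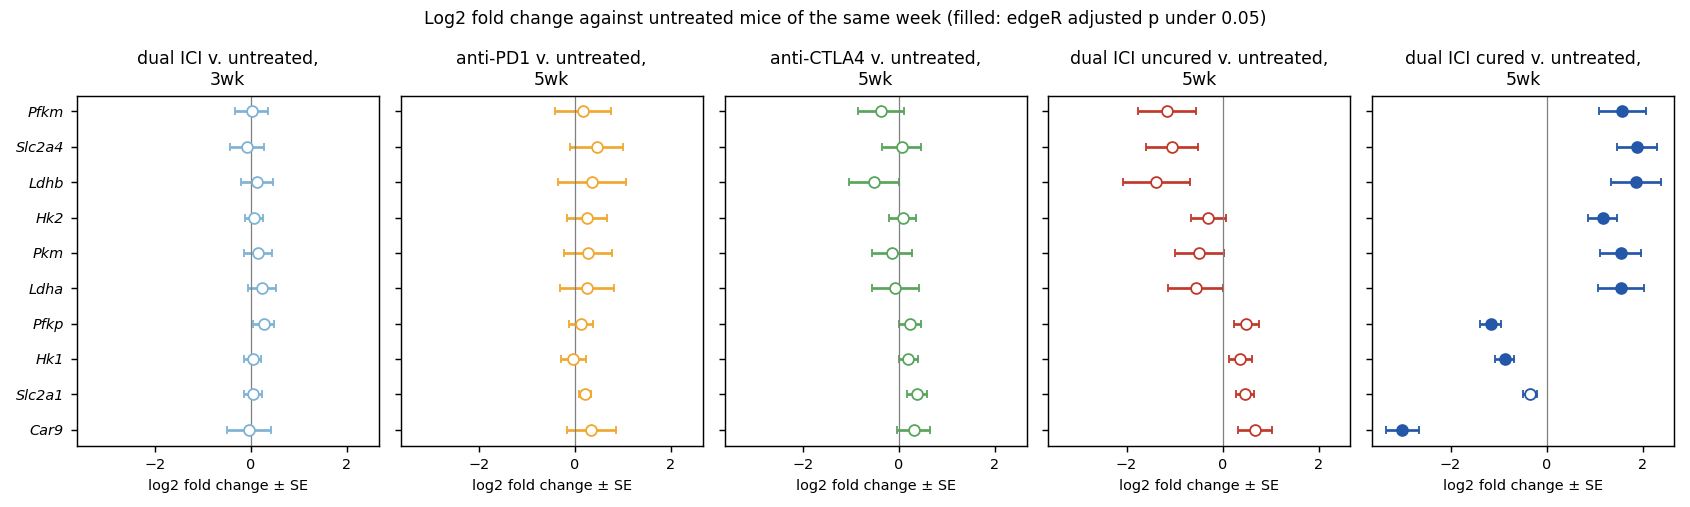
The x axis gives the log2 fold change against untreated mice of the same week, with its SE as a bar, and the y axis gives the 10 genes. Filled points passed an edgeR adjusted p of 0.05. The 9 filled points are in the cured panel, from -3.004 for Car9 to 1.88 for Slc2a4. The open points of the uncured panel lie on the opposite side of 0 from the cured ones for every gene.

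Uncured mice differed from cured mice in all 10 members, in a comparison where 70.0% of 15796 genes were called. Car9 (3.68 ± 0.21, log2), Pfkp (1.66 ± 0.10), Hk1 (1.24 ± 0.09) and Slc2a1 (0.81 ± 0.18) were higher in the 2 uncured mice, with edgeR adjusted p of at most 0.00312. Ldhb (-3.23 ± 0.17), Slc2a4 (-2.94 ± 0.13), Pfkm (-2.74 ± 0.13), Ldha (-2.10 ± 0.12), Pkm (-2.03 ± 0.12) and Hk2 (-1.47 ± 0.11) were lower. Here Slc2a1 separated as well, since the uncured values (43.3 and 61.4 CPM) were above the cured ones (24.6 to 34.5 CPM). The first group holds the ubiquitous isoforms and Car9, and the other holds the muscle isoforms together with Hk2, Pkm, Ldha and Ldhb.

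Uncured against untreated mice at 5wk gave a pattern of the opposite sign that did not pass the test. The log2 differences were -1.17 ± 0.61 for Pfkm, -1.06 ± 0.54 for Slc2a4, -1.38 ± 0.69 for Ldhb, -0.56 ± 0.58 for Ldha, -0.48 ± 0.50 for Pkm and -0.30 ± 0.37 for Hk2. Those of the other members were 0.67 ± 0.35 for Car9, 0.49 ± 0.26 for Pfkp, 0.47 ± 0.19 for Slc2a1 and 0.36 ± 0.24 for Hk1. None of the members and none of the 16156 genes tested was called by edgeR (0.0% of genes). An unadjusted p under 0.05 was found for 787 genes and 1 member, Slc2a1, and DESeq2 called 18 genes and no member. The edgeR adjusted p of the members lay between 0.734 and 0.789. The CPM ranges of 4 members (Hk1, Pfkp, Pfkm and Slc2a1) did not overlap, against 17.6% of all genes. With 2 uncured mice, differences of this size were not resolved.

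At 3wk no member passed the test between dual ICI and untreated mice. Pfkm ranged from 1110 to 2401 CPM in untreated and from 841 to 3174 CPM in dual ICI mice, Slc2a4 from 141 to 351 and from 101 to 442 CPM, and Car9 from 11.0 to 68.6 and from 15.9 to 54.6 CPM. The ranges overlapped for all of these genes. The log2 differences of the 10 members lay between -0.08 (Slc2a4) and 0.27 (Pfkp), none had an unadjusted p under 0.05, and the edgeR adjusted p was at least 0.755. In this comparison 0.574% of 15503 genes were called. The SE of these differences was 0.18 for Hk1 and Hk2, 0.35 for Pfkm and 0.46 for Car9. Hk3, the hexokinase of myeloid cells, which is not a member, was higher in dual ICI mice (0.84 ± 0.15, log2, edgeR adjusted p = 0.0333), at 17.2 to 24.8 CPM against 9.74 to 14.7 CPM. All 9 macrophage markers had positive differences beside it (median 0.53, none called), as had all 8 tested T cell markers (median 1.52, 3 called), and their part in the Hk3 difference was not tested.

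Monotherapy did not move the members past the test. In anti-PD1 mice the log2 differences to untreated mice lay between -0.03 (Hk1) and 0.45 (Slc2a4), and in anti-CTLA4 mice between -0.51 (Ldhb) and 0.37 (Slc2a1). No gene of 15640 and of 15781 tested was called by edgeR in either comparison (0.0% and 0.0% of genes), and DESeq2 called none either. An unadjusted p under 0.05 was found for 205 and 128 genes and for no member. Anti-PD1 mouse 5 set the extremes of its group. Its levels were 5132 CPM for Pfkm, 654 CPM for Slc2a4, 450 CPM for Ldhb, 34.2 CPM for Pfkp, 30.5 CPM for Hk1 and 4.99 CPM for Car9, whereas the 4 other anti-PD1 mice had 905 to 1448, 101 to 184, 46.8 to 117, 65.5 to 81.5, 72.0 to 86.5 and 43.3 to 57.6 CPM. Without this mouse the differences became -0.59 for Pfkm, -0.28 for Slc2a4 and -0.63 for Ldhb, again with no call. Anti-CTLA4 mouse 1 had the lowest muscle share of all libraries (4.70%), the lowest Pfkm (651 CPM) and Pkm (1039 CPM) levels and the highest levels of Hk1 (101 CPM), Slc2a1 (76.9 CPM) and Car9 (68.9 CPM).

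With all 5 dual ICI mice at 5wk taken as the group the labels give, no member and no gene of 15588 was called by edgeR (0.0% of genes, with 1071 genes at an unadjusted p under 0.05 and 55 called by DESeq2). The group held both extremes of Pfkm, with 740 and 800 CPM beside 5016 to 5236 CPM. Between untreated mice at 5wk and at 3wk no member was called, in a comparison where 10.8% of 15604 genes were called. The log2 differences lay between -0.63 ± 0.39 (Slc2a4) and 0.21 ± 0.17 (Hk1). Without untreated mouse 2 at 5wk, Slc2a4 (-1.06, edgeR adjusted p = 0.0257) and Hk2 (-0.53, adjusted p = 0.0309) were lower at 5wk. The difference between the effect of dual ICI in uncured mice at 5wk and that at 3wk passed the test for no member and for none of 16542 genes (0.0% called by edgeR, with 1050 genes at an unadjusted p under 0.05 and 1 called by DESeq2). The largest value among the members was that of Ldhb (-1.50 ± 0.76, log2, edgeR adjusted p = 0.707).

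Ratios between isoforms within a library do not depend on library scaling. The ratio of Pfkm to Pfkp counts ranged from 12.6 to 100.3 in untreated mice at 5wk, from 179 to 206 in cured mice and from 8.23 to 10.0 in uncured mice, with geometric means of 25.2, 191 and 9.09. None of these 3 groups overlapped with another. The ratio of Slc2a4 to Slc2a1 ranged from 2.21 to 10.6 in untreated, from 18.4 to 28.3 in cured and from 1.31 to 2.26 in uncured mice. The mouse nearest to the cured mice was anti-PD1 mouse 5, with a Pfkm to Pfkp ratio of 149.9, below their range, and a Slc2a4 to Slc2a1 ratio of 18.8, within it.

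The log2 ratio of Pfkm to Pfkp was higher in cured than in untreated mice by 2.93 and that of Slc2a4 to Slc2a1 by 2.43, each with an exact permutation p of 0.0357, two-sided, which is the smallest that 3 against 5 mice can give, and an adjusted p of 0.268 over the 15 ratio tests. The ratio of Ldhb to Ldha was 0.0649 in untreated, 0.0872 in cured and 0.0392 in uncured mice (geometric means). Its log2 difference in cured mice was 0.43 and the groups overlapped (exact permutation p = 0.25). In uncured mice the Pfkm to Pfkp ratio was lower by 1.47 on the log2 scale without overlap (exact permutation p = 0.0952, the smallest that 2 against 5 can give). The ratio of Hk1 to Hk2, which was not tested, was 0.384 in untreated, 0.0897 in cured and 0.587 in uncured mice. None of the 15 tests passed after adjustment, and the smallest exact p of the anti-PD1, anti-CTLA4 and 3wk ratios was 0.381.

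**Figure D3:**
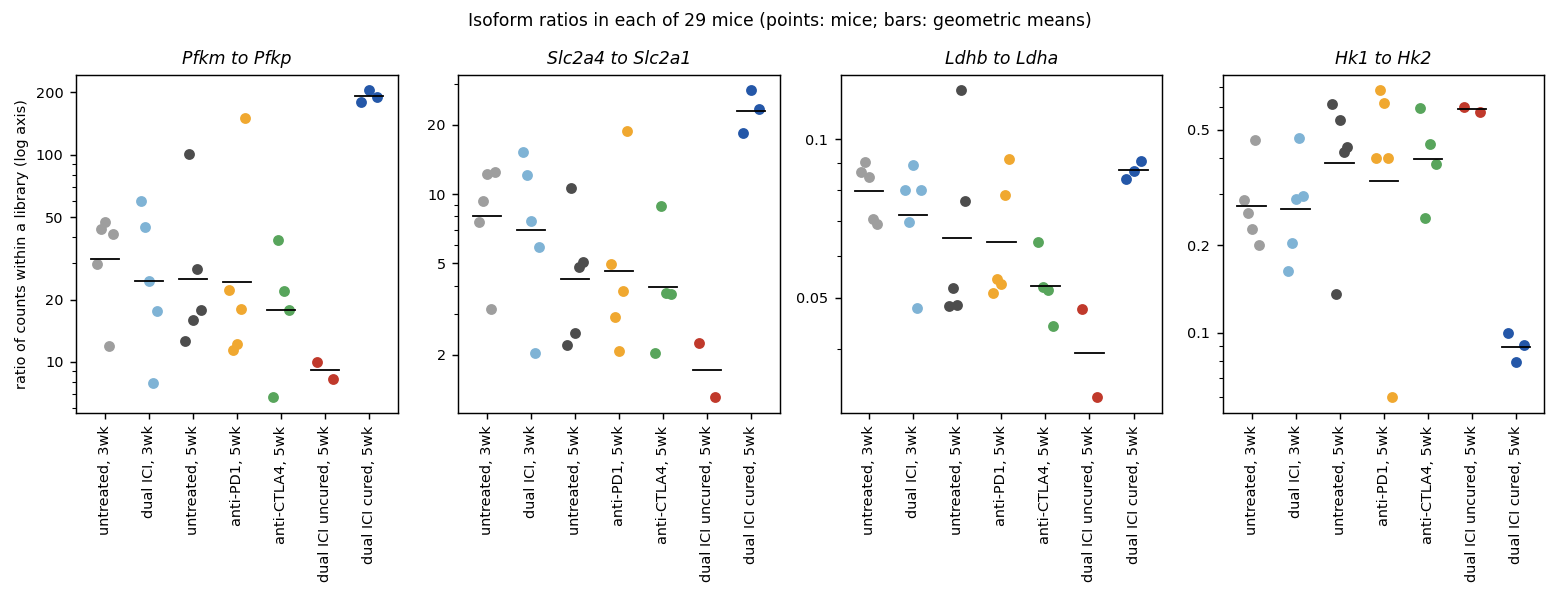
The y axis gives the ratio of the counts of 2 genes in the same library (log axis) and the x axis gives the 7 groups. Points are mice and bars are geometric means. Pfkm to Pfkp and Slc2a4 to Slc2a1 are highest in the cured mice (179 to 206 and 18.4 to 28.3) and lowest on average in the uncured mice, Ldhb to Ldha overlaps between cured and untreated mice at 5wk but not between cured and uncured mice, and Hk1 to Hk2 runs the other way.

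Within groups, the members were correlated with the skeletal muscle score of the library, some positively and some negatively. With group means removed, so that differences between treatments play no part, the log2 CPM of Pfkm had a Pearson r of 0.98 with the skeletal muscle score (mean log2 CPM of the 28 markers) over 29 mice (Spearman rho 0.96), of Ldha 0.96 (rho 0.92), of Pkm 0.95 (rho 0.92), of Ldhb 0.92 (rho 0.89), of Slc2a4 0.89 (rho 0.86) and of Hk2 0.86 (rho 0.76). The other 4 members had negative values, with -0.90 for Hk1 (rho -0.84), -0.88 for Pfkp (rho -0.81), -0.86 for Car9 (rho -0.83) and -0.72 for Slc2a1 (rho -0.70). The permutation p adjusted over all genes was at most 0.000129 for r and 0.000526 for rho, and the unadjusted p of 1e-05 reached by 8 members was the smallest that 100000 permutations can give. Of all 16672 genes, 28.9% had a positive and 33.3% a negative correlation at an adjusted permutation p under 0.05. The relation did not rest on the extreme mice, since without anti-PD1 mouse 5 and anti-CTLA4 mouse 1 the r was 0.97 for Pfkm and -0.63 for Slc2a1, the weakest. Among the 5wk mice alone r was 0.98 for Pfkm, -0.87 for Pfkp and -0.69 for Slc2a1, and among the 3wk mice 0.98, -0.95 and -0.82.

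The gastric epithelium score gave the mirror image, with r of 0.89 for Hk1 (rho 0.84), 0.88 for Car9 (rho 0.76), 0.82 for Pfkp (rho 0.80) and 0.45 for Slc2a1 (rho 0.57), and between -0.88 (Hk2, rho -0.75) and -0.76 (Ldha, rho -0.62) for the others. All 10 had an adjusted permutation p of at most 0.00205 for r. At an adjusted permutation p under 0.05, 31.7% of genes had a positive and 28.2% a negative correlation. Without anti-PD1 mouse 5 and untreated mouse 2 at 5wk, the 2 mice farthest from the median, the values lay between 0.53 and 0.72 for the 4 positive genes and between -0.78 and -0.53 for the 6 negative ones. The muscle and gastric scores were themselves related within groups (r = -0.76), so the relations with either score cannot be told apart.

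**Figure D4:**
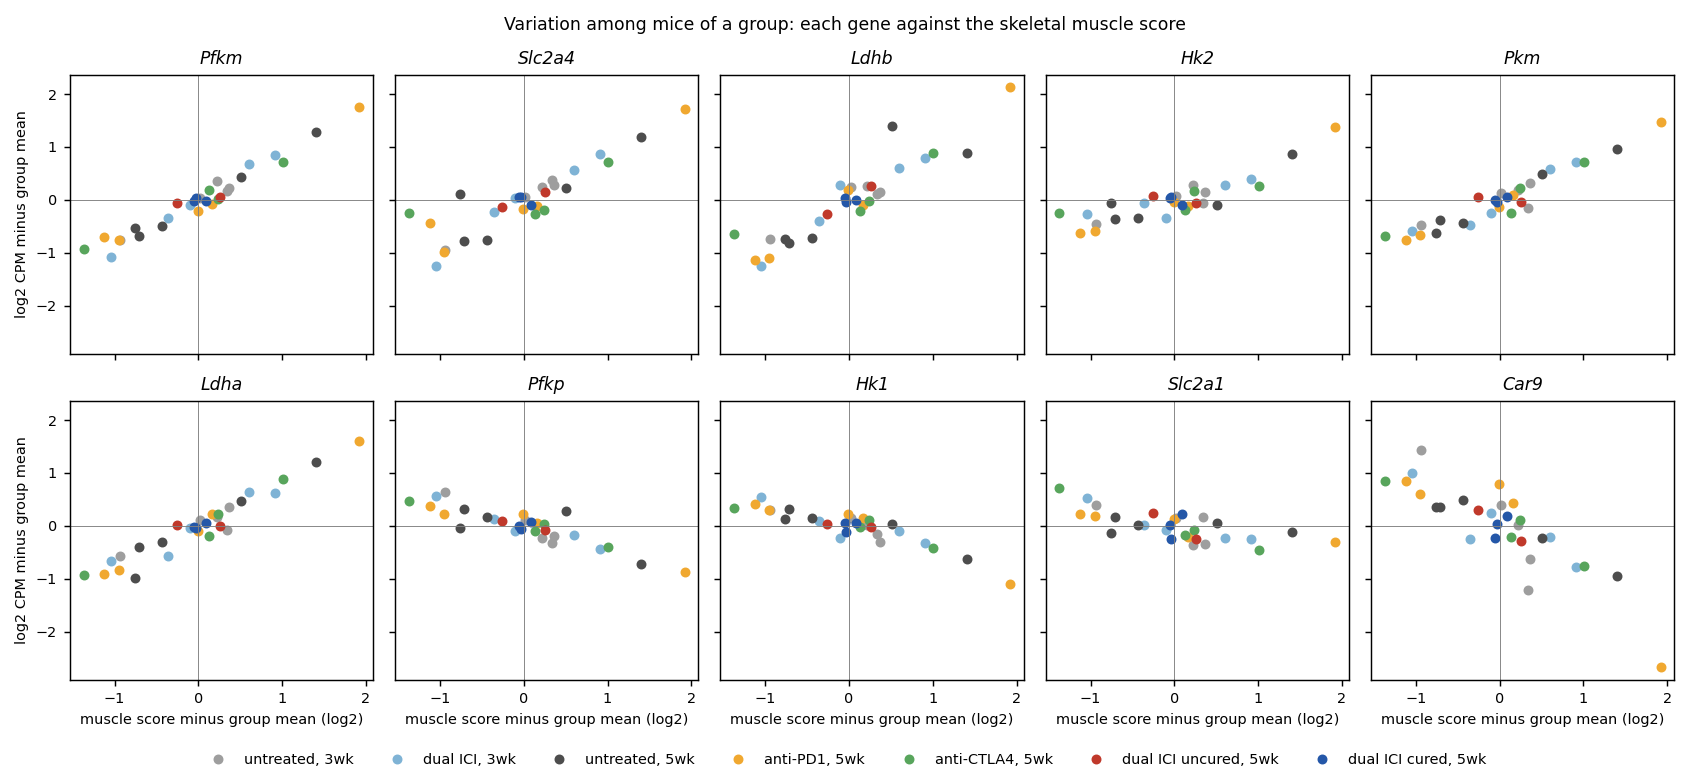
The x axis gives the skeletal muscle score and the y axis the log2 CPM of a gene, both as the difference from the group mean, and each point is 1 of 29 mice. Pfkm, Slc2a4, Ldhb, Hk2, Pkm and Ldha rise with the score (r from 0.86 to 0.98), and Pfkp, Hk1, Slc2a1 and Car9 decline (r from -0.90 to -0.72). The point farthest to the right is anti-PD1 mouse 5, and colours give the groups.

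Among themselves the members formed these same sets within groups. With Pfkm, r was 0.96 for Pkm, 0.95 for Ldha, 0.93 for Slc2a4 and for Ldhb and 0.89 for Hk2, and it was -0.92 for Hk1, -0.90 for Pfkp, -0.87 for Car9 and -0.70 for Slc2a1. Pkm and Ldha were the closest pair (r = 0.99), and Hk1 and Pfkp (r = 0.93) and Hk1 and Car9 (r = 0.91) were the closest of the other set. These values share the libraries and their tissue mixture and are given as a description. The genes most like Pfkm over the 29 mice were Aldoa, the muscle aldolase (r = 0.99), Tmem38a and Bckdk (both 0.99). Those most like Slc2a4 were Kcnj11, a potassium channel subunit of muscle and islets, Rbm38 and Neurl1a (all 0.98). Those most like Car9 were Aldoc, another aldolase (r = 0.96), Cdk18 and Arg1, arginase (both 0.95). Slc2a1 had no gene as close, with 0.82 for Klhl1, 0.80 for Gpr137b and 0.79 for Gars.

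Related genes outside the members were compared by isoform and by pathway in cured against untreated mice, where the median log2 difference of all genes was -0.05 and 44.7% of all genes were called. The counts below are read against that share, and lists that are called about as often are given as values only. Genes that were near 0 in cured mice passed the filter on low counts through the untreated mice and had to differ. Of 7 other muscle isoforms of glycolysis and glycogen use, 5 rose and none fell, with a median of 1.72. The largest were Pgam2, the muscle phosphoglycerate mutase (2.06 ± 0.60, log2, edgeR adjusted p = 0.0210), Eno3, the muscle enolase (2.02 ± 0.63, 0.0263), and Phkg1, the muscle phosphorylase kinase (1.94 ± 0.58, 0.0227). Of their 6 tested non-muscle counterparts 1 rose and 2 fell, a share near the 44.7% of all genes, with a median of -0.50. Pgam1, the ubiquitous mutase (-1.38 ± 0.26, edgeR adjusted p = 0.00296), and Pygb, the brain glycogen phosphorylase (-0.83 ± 0.21, 0.0111), fell, and Pygl, the liver form (0.69 ± 0.20, 0.0185), rose. At the mutase step as at the phosphofructokinase step, the muscle isoform rose and the ubiquitous one fell. The ubiquitous enolase Eno1 had at most 3 counts in every library and could not be assessed, and Eno1b, a near-identical copy listed beside it with 3 to 6 counts in cured and 154 to 491 in untreated mice at 5wk, may share reads with it.

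The other glycolytic enzymes, a list that also holds Pgam1, Pgam2 and Eno3, moved in both directions, with 5 of 18 higher, 8 lower and a median of 0.12. Among the lower ones were Pklr, the liver and red cell pyruvate kinase, with 0 to 4 counts in cured and 174 to 1087 in untreated mice, and Hkdc1, a hexokinase of epithelia, with 0 to 1 against 6 to 50 counts, and both passed the filter only through the untreated mice. Of 9 other glucose transporters, Slc2a12 (1.94 ± 0.57, edgeR adjusted p = 0.0217), a GLUT4-like transporter of muscle and fat, was higher and 2 were lower, namely Slc2a9 (-1.80 ± 0.40, adjusted p = 0.00623), a urate carrier, and Slc2a2, the liver and islet transporter, which had 0 counts in every cured library and 3 to 25 counts in untreated mice and so passed the filter only through the untreated mice. Of 15 genes that set the entry of pyruvate into mitochondria or the level of fructose bisphosphate, 9 rose and 1 fell, with a median of 1.18. Examples were Pfkfb1, the muscle and liver form (1.81 ± 0.49, edgeR adjusted p = 0.0156), and Dlat, a subunit of pyruvate dehydrogenase (1.74 ± 0.23, 0.000507), while Pdk3, a kinase that shuts this complex, fell (-1.72 ± 0.29, 0.00154).

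Among 16 genes of lactate and acid transport 3 rose and 4 fell, a share near the 44.7% of all genes, with a median of 0.21. Car2, the cytosolic carbonic anhydrase (-3.57 ± 0.41, log2, edgeR adjusted p = 0.000239), and Car13 (-2.09 ± 0.35, 0.00166) fell as Car9 did, and Car14, a membrane form of muscle (2.14 ± 0.50, 0.00809), rose. Of 18 genes of the hypoxia response, the class to which Car9, Slc2a1, Hk2 and Ldha are usually assigned, 5 rose and 4 fell, again near the 44.7% of all genes, with a median of 0.33. Ddit4, a stress-induced inhibitor of mTORC1 (-2.42 ± 0.43, edgeR adjusted p = 0.00215), fell, and Egln1, an oxygen sensor (1.33 ± 0.33, 0.00999), and Higd1a, a mitochondrial protein (1.22 ± 0.32, 0.0134), rose. The mean log2 CPM of the 18 genes of this list in the table was 5.76 ± 0.10 (SD, n = 3) in cured, 5.57 ± 0.09 (n = 2) in uncured and 5.65 ± 0.13 (n = 5) in untreated mice. Of 13 genes of insulin action and GLUT4 traffic 5 rose and 1 fell, also near the 44.7% of all genes, with a median of 0.82, and Irs1, the insulin receptor substrate (1.83 ± 0.46, 0.0111), Mef2c, a muscle transcription factor (1.63 ± 0.44, 0.0154), and Ppargc1a, a coactivator of oxidative genes (1.62 ± 0.30, 0.00259), had the largest fold changes.

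**Figure D5:**
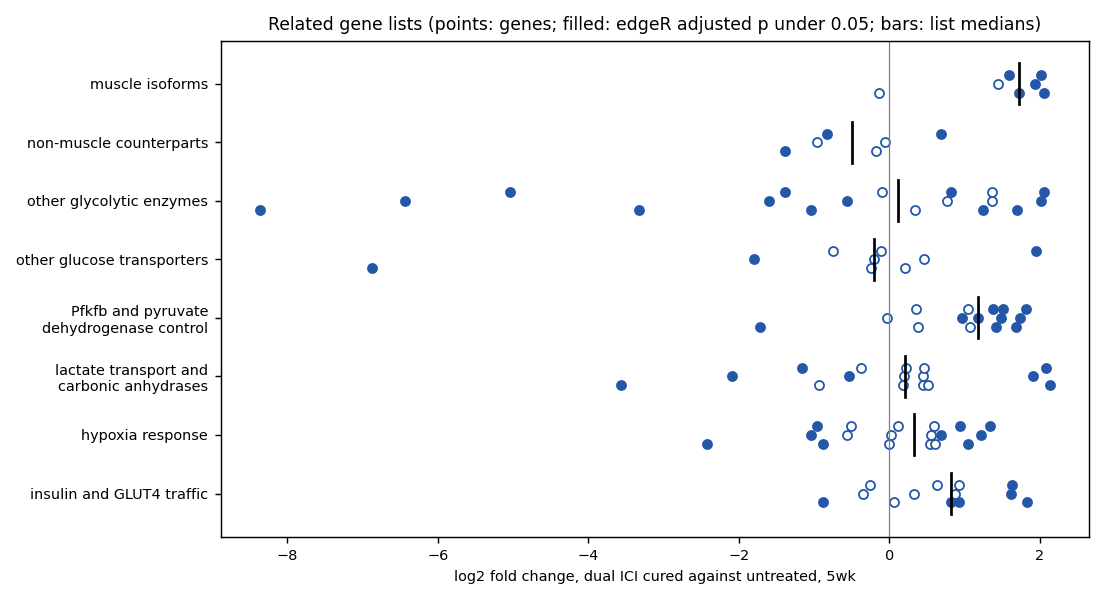
The x axis gives the log2 fold change of each gene in cured against untreated mice at 5wk and the y axis the 8 related lists. Filled points passed an edgeR adjusted p of 0.05 and bars are list medians. The muscle isoforms lie mostly to the right of 0 (6 of 7) with a median of 1.72, their non-muscle counterparts mostly to the left with -0.50, and the hypoxia list spreads on both sides with 0.33.

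The cell type lists give the tissue background of these differences. In cured against untreated mice 44.7% of all genes were called, and lists called about as often are given as values only. All 28 skeletal muscle markers had positive differences there, with 13 called and a median of 1.39. Of 24 tested gastric epithelium markers 23 fell, with a median of -6.33. All 10 proliferation genes fell (median -4.04), as did 5 of 5 neutrophil genes (-4.08), 6 of 8 T cell genes (-1.24) and 4 of 7 mesothelium genes (-1.24), and none of these rose. In every cured library 6 of 28 gastric epithelium and 3 of 7 neutrophil markers had 3 counts or fewer. Markers near 0 in cured mice passed the filter on low counts through the untreated mice and had to differ. The macrophage genes had 0 of 9 called (median -0.29), the fibroblast genes 2 higher and 1 lower of 9 (-0.37), smooth muscle 2 higher and 1 lower of 7 (0.71), endothelium 2 higher of 7 (0.37) and the 1 tested red cell gene was not called (-0.08). In uncured against untreated mice no marker was called, as was no gene at all by edgeR. The median difference was -1.08 for skeletal muscle, 0.32 for gastric epithelium and 1.27 for T cells. The part of these shifts in the levels of the 10 members was not tested.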

How the data were processed

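Bulk RNA-seq was made from 29 mice. The authors deposited raw read counts per gene, with no normalisation, after alignment of paired-end 150 bp reads to mm10. The labels' processing notes name STAR 2.7.0f and featureCounts 1.6.4, the study's methods STAR 2.5.2b and HTSeq 0.6.1, and the annotation and strand setting are not given in the sources used here. Totals were 25989217 to 31219650 counts. The p-values set group differences against the variation between libraries, which holds the spread between mice and counting error. The lowest member counts were those of Car9 in cured mice (71 to 90 per library), where counting error was not small beside the spread.

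Each comparison was fitted on all genes kept by filterByExpr, over the libraries of its groups only, with edgeR 4.0.16 (R 4.3.3) by the quasi-likelihood test with TMM and Benjamini-Hochberg adjustment (calls at 0.05). The SE is the log2 fold change divided by the root of F. Isoform ratios used counts plus 0.5 and exact permutation tests, two-sided (double the smaller tail), enumerated directly in Python 3.11.15. Scores are mean log2 CPM with a prior count of 2, and correlations used 100000 permutations within groups. Lengths, positions and symbols came from GENCODE vM21 (95.7% of symbols matched). Positions in promoters count back from the base before the start. On simulated counts with 200 genes changed 4-fold, 198 were recovered with 9 false calls in the cured comparison. The simulation gave every gene the same dispersion and changed only genes with many counts. It therefore checks the code and does not give the power of the test in these data.

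The rule for the members uses no measured value, but the members and lists were chosen with earlier results of these data known. Genes outside the members were named by rule, as the 3 called genes of a list with the largest fold changes (a gene that the rule names is not reported here), and Hk3 as the 1 called in its list at 3wk. Alternatives were DESeq2 1.42.0, upper-quartile scaling, the muscle markers left out, other filters, a fit of all 29 libraries, replicate blocks and each mouse left out.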

Additional observations from a re-analysis of the deposited data

Results flagged for a closer look

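In groups of 4 to 10 mice, 9 of 65 sets of values held a mouse that lay far from the others by Dixon's criterion, which flags about 1 in 20 groups by chance. Anti-PD1 mouse 5 accounted for 5 of them (log2 CPM). It had 12.33 for Pfkm against 10.50 for the nearest mouse, 5.10 for Pfkp against 6.03, 4.93 for Hk1 against 6.17 and 2.32 for Car9 against 5.44, and its log2 ratio of Pfkm to Pfkp was 7.23 against 4.47. The same library had 23.9% of its counts in skeletal muscle markers and 0.0120% in gastric epithelium markers, and the part of these in its values was not tested. Untreated mouse 2 at 5wk (23.2% muscle markers) had 8.35 for Hk2 against 7.43. Untreated mouse 4 at 3wk, the library with the smallest muscle share of its group (8.82%), had 6.63 for Ldhb against 7.48 and 7.14 for Slc2a4 against 8.13. Anti-CTLA4 mouse 2 had 8.25 for Slc2a4 against 7.34, with the largest muscle share of its group (16.9%).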

How the results depend on the processing

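In cured against untreated mice the number of members called was 9 under DESeq2, upper-quartile scaling, other filters, the table without muscle markers and the fit of all 29 libraries, and 6 to 9 with a mouse left out. The block on mouse number left 4 called (Slc2a4, Ldhb, Pfkp and Car9) and gave ratio differences of 2.43 for Pfkm to Pfkp and 2.20 for Slc2a4 to Slc2a1 (log2, exact sign-flip p = 0.25, the smallest possible). The deviations of same-numbered mice had correlations of -0.16 to 0.13 in this comparison. In the others they ran from -0.65 to 0.64, with at least 1 value below 0.1 in each. The highest were 0.64 for anti-CTLA4 and 0.56 at 3wk, so these values do not settle whether mice were paired. The sources used here name no pairing, and the mice were taken to share only a number. The block changed the sign of 5 uncalled differences, namely Pfkm (-0.086) and Car9 (0.11) at 3wk, Ldha (0.35) and Pkm (0.18) in uncured mice and Slc2a1 (-0.034) in all dual ICI mice. With a mouse left out the cured ratio differences were 2.68 to 3.42 and 2.19 to 2.76, with an exact permutation p of 0.0571 (3 against 4 mice) or 0.0952 (2 against 5), the smallest these sizes can give. Between untreated mice at 5wk and 3wk, 0 to 2 members were called. The relation of Hk2 with the gastric score had r = -0.69 in 3wk mice alone (permutation p = 0.0507), and the other 59 correlations kept their call.

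Uncalled log2 differences that changed sign with a mouse left out had these ranges. At 3wk they were -0.14 to 0.11 for Hk1, -0.31 to 0.13 for Slc2a4, -0.21 to 0.20 for Pfkm, -0.38 to 0.47 for Car9, -0.13 to 0.14 for Slc2a1, -0.037 to 0.14 for Hk2, -0.070 to 0.33 for Ldhb and -0.058 to 0.26 for Pkm. For anti-PD1 they were -0.15 to 0.15 for Hk1, -0.28 to 0.89 for Slc2a4, -0.015 to 0.28 for Pfkp, -0.59 to 0.66 for Pfkm, -0.29 to 0.56 for Hk2, -0.63 to 0.81 for Ldhb, -0.40 to 0.69 for Ldha and -0.30 to 0.61 for Pkm. For anti-CTLA4 they were -0.24 to 0.50 for Slc2a4, -0.64 to 0.12 for Pfkm, -0.045 to 0.51 for Car9, -0.017 to 0.39 for Hk2, -0.44 to 0.37 for Ldha and -0.43 to 0.19 for Pkm. They were -0.40 to 0.00052 for Hk2 in uncured mice, -0.19 to 0.16 for Slc2a1 in all dual ICI mice, and -0.12 to 0.15 for Pfkp and -0.12 to 0.60 for Car9 between 5wk and 3wk. Ratio differences ranged for Pfkm to Pfkp from -0.70 to 0.064 (3wk), -0.71 to 0.44 (anti-PD1) and -0.87 to 0.0032 (anti-CTLA4), for Slc2a4 to Slc2a1 from -0.54 to 0.24, -0.39 to 0.44 and -0.50 to 0.22, and for Ldhb to Ldha from -0.16 to 0.21 (anti-PD1).

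The number of genes called moved by over 1.5 times in these cases. At 3wk it was 89, and 507 with DESeq2, 209 with the block and as few as 6 without untreated mouse 5. In cured mice it was 7067, and 4016 with the block and 4491 without cured mouse 3. Between 5wk and 3wk it was 1687, and 3141 with DESeq2, 4915 without untreated mouse 2 at 5wk and 654 without untreated mouse 5 at 3wk. DESeq2 called 18 genes in uncured and 55 in all dual ICI mice, and 1 between the effects at 5wk and 3wk, where edgeR called 0. The causes were not tested.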
